A study of Homo sapiens with 13 samples.

Results

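BRG1 and SMARCC1, which work in the same chromatin remodelling complexes, were compared gene by gene in PANC1 cells through the peaks found in both libraries of each factor. A site was a stretch of merged peaks with a peak from both replicates on chromosomes 1 to 22 and X, and each site was given to the nearest RefSeq coding gene of GRCh38 within 50 kb. Of 19974 coding genes, 1268 (6.35%) had a site of either factor. Both factors were found at 48 genes (0.24%), BRG1 alone at 1118 (5.6%) and SMARCC1 alone at 102 (0.511%). In all, 1166 genes (5.84%) had BRG1 and 150 (0.751%) had SMARCC1. The 48 shared genes were thus 4.12% of the BRG1 genes and 32% of the SMARCC1 genes.

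BAF and PBAF complexes use the energy of ATP to slide or evict nucleosomes, mostly at enhancers and promoters. BRG1, the product of SMARCA4, is one of the alternative ATPase motors, and SMARCC1 is a scaffold subunit of the core on which the complexes are assembled. An antibody to either protein would reach assembled complexes, and SMARCC1 also sits in complexes that carry BRM, the other motor, in place of BRG1.

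The data are CUT&RUN peak lists, in which a nuclease tethered to an antibody cuts out the DNA beside the bound protein. Each of the 4 libraries came from PANC1, a long-established line of a human ductal carcinoma of the pancreas, stably expressing BRG1 and lightly crosslinked. The labels' BRG oe is read here as overexpression of BRG1. The promoter of the transgene and the number of clones are not given in the sources used here, and no cells at the usual BRG1 level were profiled. The series also holds 2 libraries each of H3K27ac, H3K4me1, H3K4me3 and NRF2, used here to describe the sites, and an IgG library, not used here.

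There were 3213 and 6610 peaks in BRG1 replicates 1 and 2, against 600 and 572 in SMARCC1 replicates 1 and 2. Nothing says that replicates were separate cultures, so the spread between them may be technical, and peak lists carry no counts, so depth is unknown. The highest −log10 p was 210 and 20.9 in the BRG1 libraries, against 6.79 and 6.36 in the SMARCC1 libraries, and the −log10 q was 0 at each of the SMARCC1 peaks. BRG1 replicate 1 had 11 peaks in UBA1, where BRG1 replicate 2 and both SMARCC1 libraries had 0. NRF2 replicates 1 and 2 also had 9 and 4 there, and the H3K4me3 libraries 3 each. By gene, 80.7% of BRG1 replicate 1 genes were also in replicate 2 and 46.0% the other way, against 36.3% and 38.9% between the SMARCC1 libraries. H3K4me3 or H3K27ac lay at an end of 9 of 10 epithelial and mesenchymal genes of this line (all but KRT7) and of 0 of 11 genes of blood, endothelium, endocrine and acinar pancreas or liver. SMARCA4 itself had no site of either factor.

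Promoters held by both factors were few, and 3 are shown because the BRG1 and SMARCC1 summits both fell in the 250 bases before the listed start. The capitals run from the BRG1 summit to the SMARCC1 summit, each the mean of its 2 libraries. The sequences are RefSeq promoter sequences of GRCh38.p14, written 5′ to 3′ on the gene's strand, from chr7:99552115-99552364 (minus strand), chr2:169509452-169509701 (plus strand) and chr12:113358337-113358586 (plus strand).
FAM200A: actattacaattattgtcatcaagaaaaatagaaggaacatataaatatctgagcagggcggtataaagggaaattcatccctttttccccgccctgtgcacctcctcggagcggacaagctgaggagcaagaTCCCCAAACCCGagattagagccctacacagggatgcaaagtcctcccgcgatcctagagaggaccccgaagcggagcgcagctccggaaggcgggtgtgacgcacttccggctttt
KLHL41: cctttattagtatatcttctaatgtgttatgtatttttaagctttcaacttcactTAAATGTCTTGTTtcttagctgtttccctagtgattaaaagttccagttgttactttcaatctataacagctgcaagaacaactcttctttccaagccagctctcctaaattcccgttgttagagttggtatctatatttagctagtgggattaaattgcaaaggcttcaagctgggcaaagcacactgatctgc
PLBD2: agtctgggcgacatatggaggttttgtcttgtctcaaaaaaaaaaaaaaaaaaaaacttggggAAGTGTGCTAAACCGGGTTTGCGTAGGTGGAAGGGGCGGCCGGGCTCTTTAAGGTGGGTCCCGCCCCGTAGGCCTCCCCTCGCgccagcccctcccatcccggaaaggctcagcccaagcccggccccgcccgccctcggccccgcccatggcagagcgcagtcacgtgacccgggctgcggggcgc

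At FAM200A the capitals cover 12 bases, 117 to 106 bases before the start, and at KLHL41, a Kelch protein of the muscle sarcomere, 13 bases, 195 to 183 before it. At PLBD2, a phospholipase B-like protein of the lysosome, they cover 83 bases, 187 to 105 before the start. KLHL41 differed from the others in its low GC content, 36.0% of the 250 bases against 52.0% at FAM200A and 63.6% at PLBD2. Its sites met H3K27ac and H3K4me1 but no H3K4me3, whereas those of FAM200A and PLBD2 met H3K4me3 and H3K27ac. A further overlapping pair lay at VPS39, a subunit of the lysosomal HOPS tether, with the summits on either side of its listed start.

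Promoters of a single factor are shown for the letters they hold. Of 27 listed promoters (250 bases before to 50 after a start) with a SMARCC1 site and no BRG1 site, 14, or 51.9%, held CCGGAAG, the core letters that ETS factors read, on either strand. It was in 15.0% of 60 promoters with BRG1 and no SMARCC1, in 12.8% of all 22012 and in 20.4% of the 11991 with an H3K4me3 region. TGANTCA, the letters that AP-1 factors read, gave the other order. It was in 18.3% of the BRG1 promoters, 3.70% of the SMARCC1 promoters (1 of 27) and 6.16% of all promoters. In promoters with an H3K4me3 region it was in 3.59%, close to the SMARCC1 share. Of the other letters searched, CCAAT was in 46.7% of BRG1, 51.9% of SMARCC1 and 34.7% of all promoters, GGGCGG in 73.3%, 44.4% and 56.3%, and GGAATG in 11.7%, 3.70% and 12.2%. Promoters with an H3K4me3 region held CCAAT in 35.1%, GGGCGG in 75.1% and GGAATG in 10.2%. Both strands were searched, CCGGAAG and TGANTCA cannot overlap, and promoters shared by neighbouring genes count for each gene. These are counts of letters in a window, and say nothing of which factor binds there. Capitals mark CCGGAAG (here on the other strand, as CTTCCGG) at SNF8, chr17:48944843-48945092 (minus strand), and SP110, chr2:230219985-230220234 (minus strand), both SMARCC1 only. They mark TGANTCA at MED17, chr11:93784032-93784281 (plus strand), and ZNF564, chr19:12551483-12551732 (minus strand), both BRG1 only. These 4 were the best ranked sites whose summit and motif both lay in the window.
SNF8: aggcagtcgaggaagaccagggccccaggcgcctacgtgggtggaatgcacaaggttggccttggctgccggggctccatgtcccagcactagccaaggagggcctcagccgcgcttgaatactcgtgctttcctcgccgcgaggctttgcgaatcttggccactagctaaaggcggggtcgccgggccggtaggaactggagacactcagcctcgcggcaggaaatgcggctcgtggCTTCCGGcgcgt
SP110: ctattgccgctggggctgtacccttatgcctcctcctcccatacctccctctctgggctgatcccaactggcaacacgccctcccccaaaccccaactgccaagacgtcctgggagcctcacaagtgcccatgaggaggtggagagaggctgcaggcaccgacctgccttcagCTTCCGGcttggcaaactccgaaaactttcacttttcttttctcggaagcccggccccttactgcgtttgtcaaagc
MED17: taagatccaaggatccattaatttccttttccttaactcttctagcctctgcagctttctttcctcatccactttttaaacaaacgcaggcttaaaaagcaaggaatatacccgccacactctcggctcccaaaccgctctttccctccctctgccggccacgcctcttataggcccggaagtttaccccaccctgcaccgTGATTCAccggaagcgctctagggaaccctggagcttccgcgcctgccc
ZNF564: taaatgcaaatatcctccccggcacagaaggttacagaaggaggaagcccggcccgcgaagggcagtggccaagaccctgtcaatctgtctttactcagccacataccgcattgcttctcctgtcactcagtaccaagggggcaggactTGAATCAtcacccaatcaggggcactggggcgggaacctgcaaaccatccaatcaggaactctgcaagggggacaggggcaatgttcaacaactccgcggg

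At SNF8, an ESCRT subunit, the SMARCC1 summit lay 226 and the motif 12 to 6 bases before the start. At SP110, a nuclear body protein, the summit lay 188 and the motif 77 to 71 bases before it. MED17, a Mediator subunit, had its BRG1 summit 180 bases and its motif 49 to 43 bases before the start. Its 250 bases also held CCGGAAG at 2 places, not in capitals, so it carries the letters of both kinds. ZNF564, a zinc-finger gene, had its BRG1 summit 183 bases and its motif 101 to 95 bases before the start. At none of the 4 did the motif lie under the summit.

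In the 48 shared genes, BRG1 and SMARCC1 sites overlapped at 23, or 47.9% (95% exact binomial interval 33.3 to 62.8), with mean summits 3.50 to 285 bp apart and a median of 73.5 bp. The other 25 genes had their nearest sites 1129 to 305322 bp apart, with a median of 30254 bp. The span from 300 to 1000 bp held 0 genes. A site apart was not always free of the other factor, since 12 of 26 such SMARCC1 sites met a BRG1 peak of 1 library. Over all 48 the median was 1235 bp, with 1381 bp from the replicate 1 summits and 1090 bp from the replicate 2 summits, and it lies beside the gap between the groups. It was 180 and 303 bp without BRG1 replicates 1 and 2, and 674 and 3657 bp without SMARCC1 replicates 1 and 2. With 1 library left out in turn, or with peaks of either replicate, the share under 300 bp was between 43.0% and 56.9% and the gap held 3 to 13 genes.

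**Figure D1:**
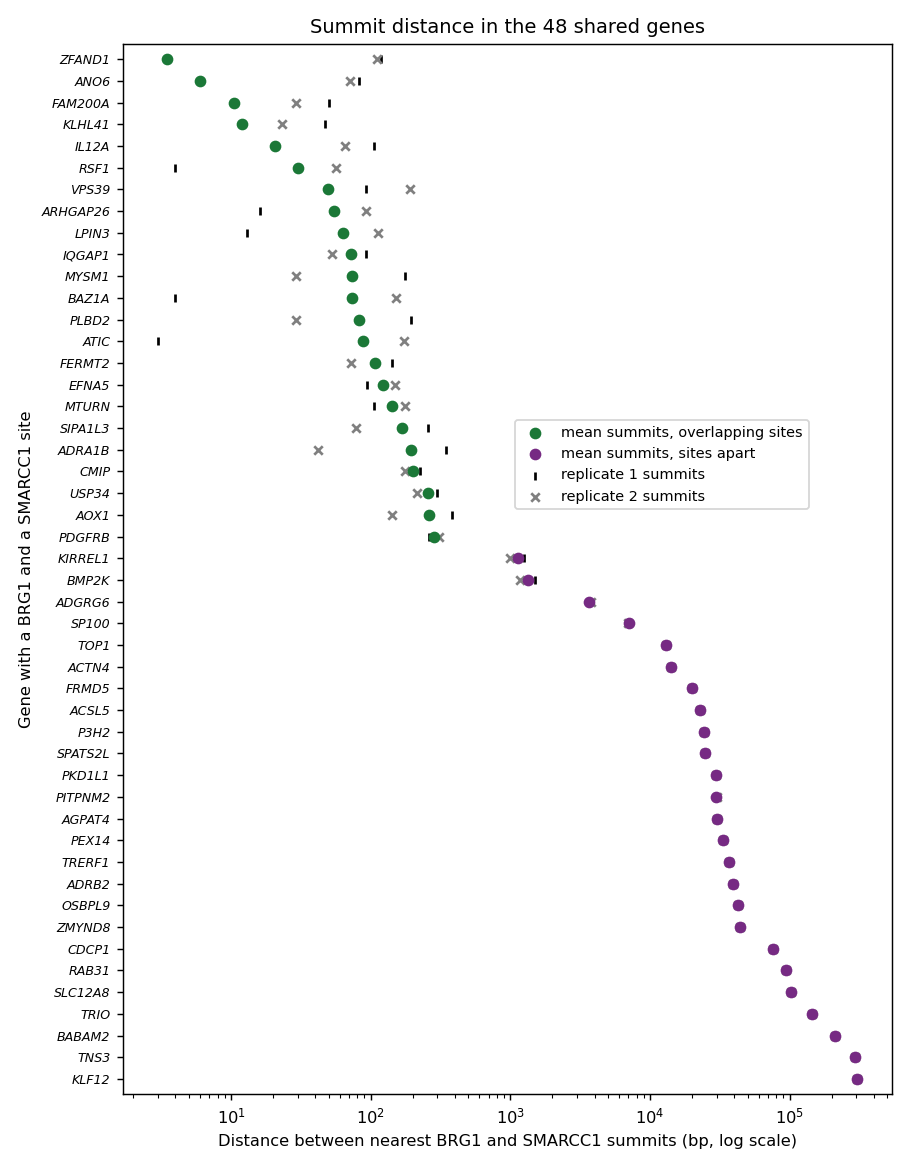
Distance in bp (log axis) between the nearest BRG1 and SMARCC1 summits in each of the 48 genes with both, from the mean summits (filled points, green for overlapping sites, purple for sites apart) and from the replicate 1 and replicate 2 summits alone. The overlapping pairs end at 285 bp and the pairs apart start at 1129 bp, and at ZFAND1 and ANO6 the distances within each library are larger than those from the mean summits.

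At most overlapping pairs the distance lay within the spread between libraries. Summits of the 2 replicates of 1 factor lay a median of 96 bp apart for BRG1 and 80 bp for SMARCC1 at these sites. Between the factors the median was 106 bp from the replicate 1 summits and 93 bp from the replicate 2 summits, much like these gaps. The 73.5 bp comes from summits averaged over 2 libraries, so it is not a like measure. At ZFAND1, which helps clear stress granules, the mean summits were 3.50 bp apart, but 118 bp in replicate 1 and 111 bp in replicate 2. At ANO6, a phospholipid scramblase, they were 6 bp apart, with 83 and 71 bp in the libraries. At 4 of the 23 pairs (MTURN, CMIP, USP34 and PDGFRB) the distance from the mean summits and in each library was larger than the gap between replicates of either factor. At PDGFRB it was 262 and 308 bp in the libraries, against replicate gaps of 60 bp for BRG1 and 14 bp for SMARCC1, and at USP34 it was 300 and 213 bp, against 53 and 140 bp.

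Chromatin regulators were among the genes with overlapping sites. RSF1, the partner of an ISWI remodelling ATPase, carried the strongest SMARCC1 site of any shared gene, on chr11:77705523-77705805. Its SMARCC1 fold enrichment, the authors' own value for each peak, was 4.40 and 4.75 in replicates 1 and 2, and its BRG1 fold 3.70 and 5.20. BAZ1A, another ISWI partner, had BRG1 folds of 3.28 and 2.77 and SMARCC1 folds of 2.45 and 2.87, all near the low end. Both lay inside the gene, RSF1 in H3K27ac with H3K4me1 and BAZ1A in H3K4me1 alone. MYSM1, a deubiquitinase of histone H2A, had its pair in H3K4me3, with BRG1 folds of 3.74 and 4.20 and SMARCC1 folds of 2.63 and 3.42. Of 18 remodeller genes outside BAF, 2 had both factors (RSF1 and BAZ1A), 0 BRG1 only and 1 SMARCC1 only (EP400, the ATPase of the TIP60 complex), against 0.24%, 5.6% and 0.511% of all coding genes.

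The cytoskeleton regulators were the other list with shared genes. IQGAP1, a scaffold that binds actin, had the strongest BRG1 site of an overlapping pair by mean, on chr15:90400781-90401214, with folds of 5.13 and 6.12 for BRG1 and 2.99 and 3.75 for SMARCC1. FERMT2, a kindlin that activates integrins and is on none of the lists, had BRG1 folds of 3.48 and 5.37 and SMARCC1 folds of 2.60 and 2.61. Folds of different antibodies are not on 1 scale, so they are read here only within a factor. ACTN4, an actin crosslinker, held 3 BRG1 sites and 1 SMARCC1 site, the nearest 14088 bp apart. TNS3, a focal adhesion protein, had them 291020 bp apart, the BRG1 site 46893 bp outside the gene and near the 50 kb limit. Of 24 cytoskeleton genes, 3 had both factors, 7 BRG1 only (among them MYO10, RHOB and PALLD) and 0 SMARCC1 only, against 0.24%, 5.6% and 0.511% of all coding genes.

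PDGFRB, a growth factor receptor, had the highest BRG1 fold in replicate 1 among overlapping pairs, 6.45 and 4.74 in the libraries, beside SMARCC1 folds of 2.60 and 2.46, the lowest mean. Its summits were 285 bp apart. ADRA1B, an adrenergic receptor, had BRG1 folds of 2.64 and 5.85, so its 2 libraries disagree, with SMARCC1 folds of 2.71 and 2.99. EFNA5, an ephrin ligand, held 3 BRG1 sites, of which 1 met SMARCC1 with BRG1 folds of 2.84 and 3.48. At IL12A, a cytokine subunit, the pair lay 24204 bp outside the gene, with BRG1 folds of 4.56 and 4.37.

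LPIN3, a phosphatidate phosphatase, had SMARCC1 folds of 4.34 and 4.21, which with RSF1 were the only ones above 4 in both libraries at an overlapping pair, and BRG1 folds of 4.77 and 3.03. AOX1, an aldehyde oxidase, had SMARCC1 folds of 4.12 and 3.33, and ATIC, an enzyme of purine synthesis, BRG1 folds of 3.98 and 5.24. USP34, a deubiquitinase, had its pair in H3K4me1 without H3K27ac. VPS39 had the weakest BRG1 site of the overlapping pairs by mean, 2.85 and 2.90. ARHGAP26, SIPA1L3 and CMIP, regulators of small GTPases and signalling, met H3K27ac without H3K4me1 or H3K4me3, as did IQGAP1. ZFAND1 was in H3K4me3 with BRG1 folds of 4.22 and 6.81, and MTURN, 43722 bp from its BRG1 site, had 4.77 and 4.83.

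Genes with separate sites included several with more than 1 element. KIRREL1, an adhesion protein of the nephrin family, had 2 sites of each factor, the closest 1129 bp apart, and BMP2K, a kinase of clathrin trafficking, had them 1341 bp apart. At ADGRG6, an adhesion G protein-coupled receptor, 3672 bp separated the closest pair, and at SP100, a nuclear body protein, 7066.5 bp. TOP1, a topoisomerase, FRMD5 and ACSL5, an acyl-CoA synthetase, followed at 12950, 20001 and 22628 bp. The widest were KLF12, a transcriptional repressor, at 305322 bp, TNS3, BABAM2, a subunit of a BRCA1 complex, at 212106 bp, TRIO, a guanine nucleotide exchange factor, at 143638 bp, and SLC12A8, a transporter, at 101448 bp. KLF12 had the strongest BRG1 site of any shared gene, with folds of 5.93 and 9.42 and no mark, while its SMARCC1 site had 2.56 and 3.09. At least 3 sites in all were also found at OSBPL9, P3H2, PITPNM2 and TRERF1.

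Shared genes were long, and more of them held several BRG1 sites. Their median span was 135060 bp, against 109622 bp for genes with BRG1 only, 54835 bp for genes with SMARCC1 only and 24171 bp for all coding genes. Several BRG1 sites lay at 14 of the 48 shared genes (29.2%) and at 217 of the 1118 with BRG1 only (19.4%). The part of gene length in the sharing was not tested.

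Genes with BRG1 only were led by sites stronger than any overlapping pair. TGFB2, a TGF-beta ligand, had folds of 7.08 and 7.70 at a site in H3K27ac 18828 bp away, and MAN2A1, an N-glycan enzyme, 7.98 and 7.35 in H3K4me1. LGR4, a receptor of Wnt signalling, had 6.40 and 7.65 in H3K27ac. COL17A1, a hemidesmosome collagen, had 7.08 and 7.38 in no mark. LARP1B, EEA1 (an endosome tether), WFDC3 and CRYL1 followed, also in no mark, with folds from 6.06 at LARP1B to 7.39 at CRYL1 in replicate 1 and from 6.81 at CRYL1 to 8.26 at LARP1B in replicate 2. In all, 5 of these 8 sites met none of the 3 marks, against 49.9% of the 1410 sites in genes with BRG1 only. So few sites do not set the strongest apart. The CRYL1 site met a SMARCC1 peak of 1 library. DST, a cytoskeletal linker, had the most sites with 7, of which 6 met H3K27ac, followed by KCNQ5, a potassium channel, with 6 sites of which 0 met H3K27ac, and ABLIM3, an actin-binding protein, with 5.

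Adhesion and growth pathways appeared with BRG1 only, to be read against 5.6% of all coding genes with BRG1 only. Genes with BRG1 only had a median length of 109622 bp, against 24171 bp for all coding genes. The part of gene length in the list counts was not tested. Of 25 integrin, laminin and focal adhesion genes, 6 had BRG1 only (ITGB1, LAMA3, LAMA4, LAMB1, LAMB3 and PTK2) and 0 both or SMARCC1 only. The strongest of these by mean was at LAMB1, with BRG1 folds of 5.23 and 4.29. Of 18 YAP and TEAD genes, 4 had BRG1 only (YAP1, WWTR1, AMOTL1 and PTPN14), with 3 sites at PTPN14, a phosphatase that binds YAP1. Of 21 hypoxia and glycolysis genes, 4 had BRG1 only. Among them was SLC2A1, a glucose transporter, with folds of 4.55 and 4.47 at a site 248 bp from a listed start. Over all 12 lists, 5 of 244 genes had both factors, 34 BRG1 only and 3 SMARCC1 only, and 17.2% had a site against 6.35% of all coding genes. The lists were drawn up with earlier results of these cells known, so this share is not independent evidence.

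Counts in the other lists are also to be read against 5.6% of all coding genes with BRG1 only and 0.511% with SMARCC1 only. BRG1 only was found at 2 of 16 AP-1 genes (JUN and BATF), 2 of 21 TGF-beta genes (TGFB2 and TGIF1), 2 of 21 genes of epithelial and mesenchymal state (GRHL2 and AXL) and 2 of 13 genes of the EGF receptor family (ERBB4 and AREG). Of 30 BAF and PBAF subunit genes, ARID1B had BRG1 only and BCL7C SMARCC1 only, and this share of 6.67% with either is near the 6.35% of all coding genes. Of 24 NRF2 and antioxidant genes, 4 had BRG1 only (NFE2L2, SLC7A11, ABCC2 and ABCC3) and 1 SMARCC1 only (ABCC1). The share with either factor was 20.8% on this list, 15.4% for the EGF receptor family and 12.5% for AP-1. It was 9.52% for TGF-beta and for epithelial and mesenchymal state. None of 16 pancreatic cancer driver genes had either.

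On chromosomes with listed starts, genes with SMARCC1 only held 109 sites. Of these, 35 (32.1%) lay within 1000 bp of the nearest listed start of any coding gene, and 74 lay farther away. Over all chromosomes the best ranked site was at NDUFAF6, a complex I assembly factor, with folds of 4.43 and 4.98 in H3K4me3 and H3K27ac. EXOC7, an exocyst subunit, had 4.05 and 4.63 in the same marks, 240 bp from a listed start. ZNF619, BRSK1, a kinase, and OAS2, an interferon-induced enzyme, also met H3K4me3, at 18079 to 40115 bp from a listed start. ABCC1, an exporter of glutathione conjugates, had 4.17 and 4.39 and BCAS3 3.73 and 5.11, both in H3K4me1 with H3K27ac. NLRP3, the inflammasome sensor, had 3.95 and 4.34 in no mark. AKT2, a kinase of insulin signalling, and SUPT5H, an elongation factor, had 3 SMARCC1 sites each, and ABCC1 had 2. All sites of ABCC1, ZNF619 and OAS2 also met a BRG1 peak of 1 library, and the other sites named here met none.

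On chromosome 19, from 35000001 to 40000000, SMARCC1 sites were concentrated. This was the fullest 5 Mb window for SMARCC1, with 9 of the 169 sites (5.33%), 14 of 600 replicate 1 peaks and 13 of 572 replicate 2 peaks, and it holds the sites of SUPT5H, ACTN4 and SIPA1L3. It held 4 of 2039 BRG1 sites (0.196%), 4 of 3213 and 9 of 6610 peaks of the BRG1 libraries. H3K27ac peaks in it were 0.649% and 0.681% of their libraries. Window and comparison were chosen after the sites were seen, and what moves with this was not tested.

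BRG1 sites that met SMARCC1 were mostly acetylated, whereas BRG1 sites in genes without SMARCC1 mostly were not. H3K27ac was met by 21 of 23 overlapping sites, or 91.3% (72.0 to 98.9), by 28 of 44 other BRG1 sites in shared genes, or 63.6% (47.8 to 77.6), and by 468 of 1410 sites in genes with BRG1 only, or 33.2% (30.7 to 35.7). The overlapping sites without it were at BAZ1A and USP34. With each BRG1 library's own peaks, the share in shared genes against genes with BRG1 only was 68.3% against 31.2% in replicate 1 and 66.2% against 31.7% in replicate 2. The difference, 35.8 ± 1.85 percentage points (SD, n = 2), was larger than the spread between libraries. Both libraries were scored on the same gene classes and H3K27ac regions, so this SD leaves out how those vary. By site, the difference was 23.1 and 26.2 points without SMARCC1 replicates 1 and 2, against 39.9 points with all.

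None of the 23 overlapping sites lacked all 3 marks, which allows a share of up to 13.0%, against 14 of 44 sites apart and 703 of 1410 (49.9%) in genes with BRG1 only. H3K4me1 was met by 14 of 23, or 60.9% (38.5 to 80.3), against 34.1% (20.5 to 49.9) of the sites apart and 29.4% in genes with BRG1 only. H3K4me3 was met by 5 of 23, 1 of 44 and 105 of 1410 (7.45%). The 5 were at ZFAND1, FAM200A, VPS39, MYSM1 and PLBD2. SMARCC1 sites are acetylated as a class, 136 of 169 or 80.5%, and overlapping sites of both factors share their region.

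Most SMARCC1 sites of each class met H3K27ac, and the share with H3K4me3 was highest in genes with SMARCC1 only. H3K27ac was met by 21 of 23 overlapping sites, 22 of 26 apart (84.6%, interval 65.1 to 95.6) and 86 of 110 in genes with SMARCC1 only (78.2%, 69.3 to 85.5). H3K4me3 was met by 5 of 23 overlapping sites (21.7%, 7.46 to 43.7), 4 of 26 apart (15.4%, 4.36 to 34.9) and 48 of 110 in genes with SMARCC1 only (43.6%, 34.2 to 53.4). For both marks these intervals overlap between classes. In the libraries' own peaks the H3K4me3 share was 17.7% in shared genes against 41.1% in genes with SMARCC1 only in replicate 1. It was 21.5% against 38.7% in replicate 2. The difference, −20.3 ± 4.40 percentage points (SD, n = 2), was larger than the spread between libraries. Gene classes and H3K4me3 regions were again the same for both libraries. Sites within 1000 bp of a listed start were 4 of 22 (interval 5.19 to 40.3), 1 of 26 and 35 of 109 (23.5 to 41.7) in the 3 classes. Of the 35 in genes with SMARCC1 only, 33 met H3K4me3, and of the 74 farther away 14 met H3K4me3 and 49 H3K4me1. Starts are listed for only 15812 of 19974 coding genes, so a site at an unlisted start counts as farther away. The NDUFS5 site, in H3K4me3, lay 354 bp outside the gene and 34655 bp from a listed start. H3K4me3 lay at a listed start of 32 of 39 shared genes, 693 of 931 genes with BRG1 only and 77 of 83 with SMARCC1 only, against a background of 62.1% of listed genes.

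**Figure D2:**
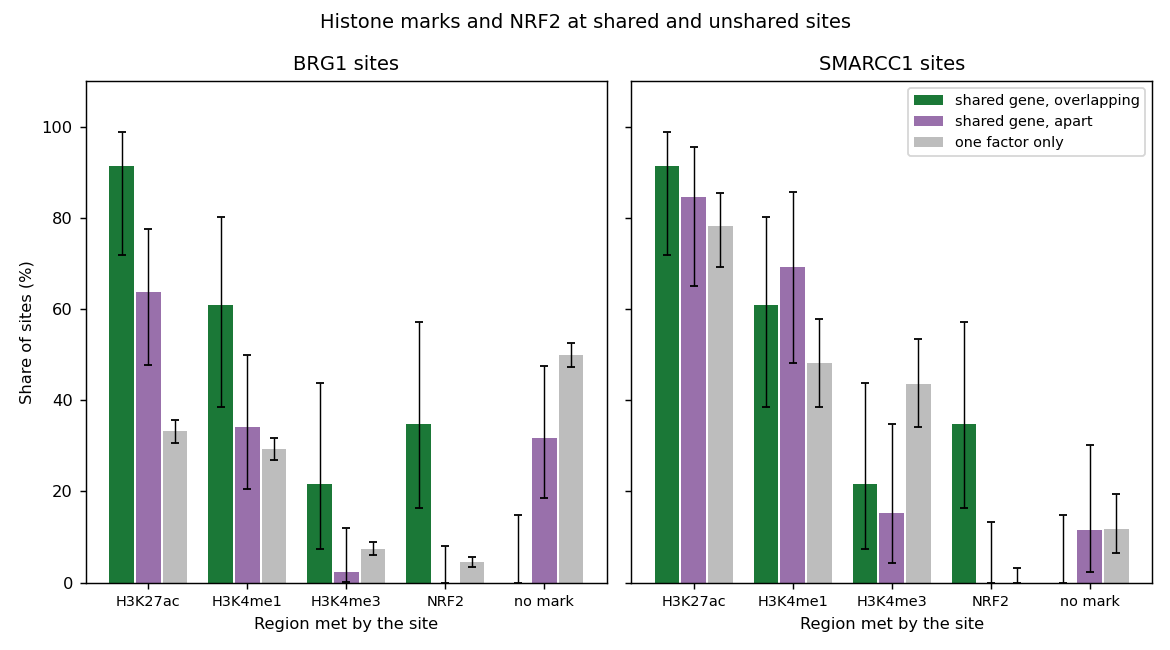
Share of BRG1 sites (left) and SMARCC1 sites (right) that meet an H3K27ac, H3K4me1, H3K4me3 or NRF2 region, or none of the 3 histone marks, for overlapping sites in shared genes, sites apart in shared genes and sites in genes with 1 factor only. Bars are percentages of sites and lines 95% exact binomial intervals, which cover counting error only; BRG1 runs from 91.3% to 33.2% in H3K27ac, and SMARCC1 reaches 43.6% in H3K4me3 in genes with SMARCC1 only.

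NRF2, the transcription factor of the antioxidant response, lay at 8 of the 23 overlapping pairs, 34.8% (16.4 to 57.3). These were ZFAND1, KLHL41, LPIN3, IQGAP1, ATIC, MTURN, SIPA1L3 and CMIP. It lay at 0 of 44 BRG1 sites apart, 63 of 1410 sites in genes with BRG1 only (4.47%), 0 of 26 SMARCC1 sites apart and 0 of 110 in genes with SMARCC1 only. A count of 0 allows up to 6.82%, 11.5% and 2.73% of these sites, for NRF2 regions found in both its libraries. Peaks of NRF2 replicates 1 and 2 alone gave higher shares, 56.5% and 39.1% at overlapping pairs. They gave 9.09% and 6.82% at BRG1 sites apart and 17.3% and 9.22% in genes with BRG1 only. At SMARCC1 sites apart they gave 3.85% in each, and in genes with SMARCC1 only 5.45% and 0.909%. Overlapping pairs were thus highest in both libraries.

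BRG1 was somewhat stronger where it met SMARCC1, and SMARCC1 was not measurably stronger where it met BRG1. The median BRG1 fold was 3.92 and 4.37 in the libraries at overlapping sites, 3.49 and 3.90 at sites apart in shared genes and 3.49 and 3.86 in genes with BRG1 only. Overlapping sites exceeded genes with BRG1 only by 0.469 ± 0.0595 (SD, n = 2), more than the spread between libraries, and sites apart by 0.0180 ± 0.0263 (SD, n = 2), within it. Both libraries were scored at the same sites and classes, so these SDs leave out how those vary. The fold of a single site ranged far more widely, with an interquartile range of 3.86 to 4.47 at overlapping sites and 3.31 to 4.28 in genes with BRG1 only. On the log2 scale of mean folds, overlapping sites were 0.15 higher, and 0.092 and 0.10 higher without SMARCC1 replicates 1 and 2. With lists of equal length they were 0.073 higher, but only 8 genes were then shared. That value rests on a few overlapping sites and is a weak check.

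The median SMARCC1 fold was 3.03 and 3.40 at overlapping sites, 3.03 and 3.02 at sites apart and 3.18 and 3.16 in genes with SMARCC1 only. Overlapping sites differed from genes with SMARCC1 only by 0.050 ± 0.276 (SD, n = 2), within the spread between libraries, which point in opposite directions. Across the 26 overlapping pairs, 3 of them beyond 50 kb of any gene, BRG1 and SMARCC1 folds gave a Spearman correlation of −0.156, and across the nearest pairs of the 48 shared genes 0.0383. Replicates of 1 factor gave 0.413 over 2039 BRG1 sites and 0.361 over 169 SMARCC1 sites. These describe pairs that share their peak calling and are not replicates. With 2 libraries a group, no exact permutation test could give a p below 0.333, so none is reported.

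**Figure D3:**
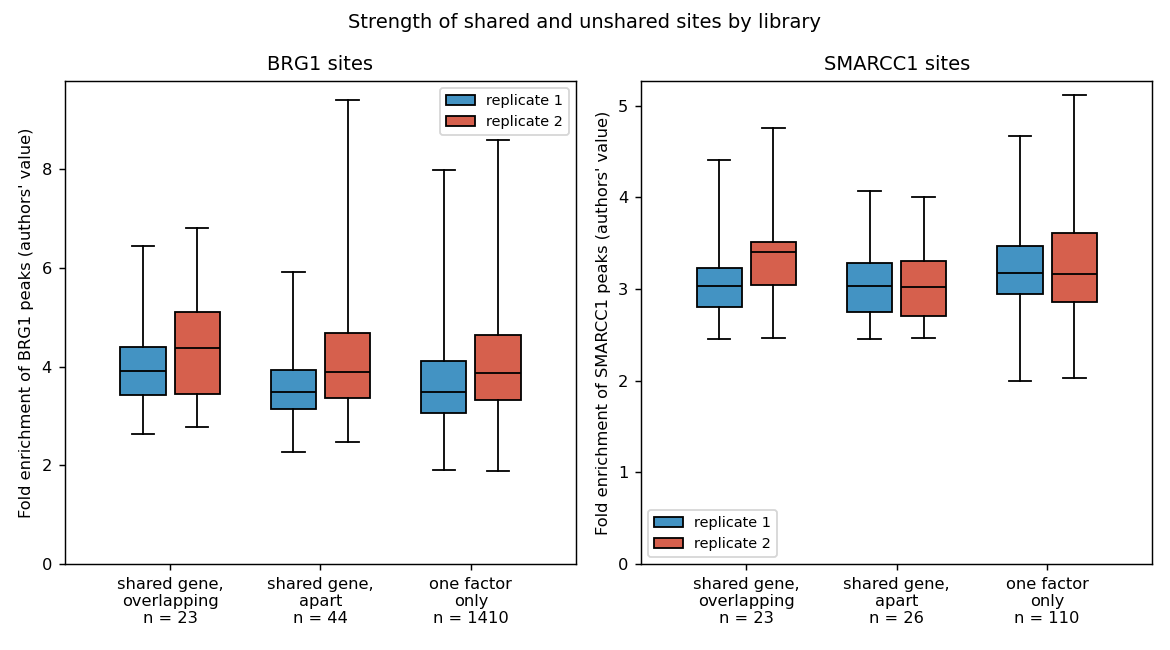
Fold enrichment (authors' value per peak) of BRG1 sites (left) and SMARCC1 sites (right) in replicate 1 and replicate 2, for overlapping sites in shared genes, sites apart in shared genes and sites in genes with 1 factor only. Boxes span the quartiles with the median, whiskers the full range; the BRG1 medians at overlapping sites are 3.92 and 4.37, above 3.49 and 3.86 in genes with BRG1 only, and the ranges overlap widely.

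Many genes with 1 factor had a peak of the other in 1 of its libraries. Of the 169 SMARCC1 sites, 26 overlapped a BRG1 site, 40 more met a BRG1 peak of 1 library (11 of replicate 1 and 29 of replicate 2) and 103 (60.9%) met none. Among sites apart in shared genes 12 of 26 met a BRG1 peak of 1 library, among them those of BMP2K, ADGRG6, SP100, FRMD5 and KLF12, and in genes with SMARCC1 only 28 of 110. By gene, 46 of the 102 with SMARCC1 only had a BRG1 peak of 1 library, and 170 of the 1118 with BRG1 only a SMARCC1 peak of 1 library. A missing site cannot be told apart from a shallow library here.

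The count of shared genes followed the length and strictness of the lists. With the 572 peaks of highest −log10 p in each library, ties ordered by fold, it was 8. It was 18 with −log10 p of at least 3 and 427 with peaks of either replicate. Leaving out SMARCC1 replicate 1 or 2 gave 128 or 151 genes, and leaving out BRG1 replicate 1 or 2 gave 86 or 66. Leaving out BRG1 replicate 1 or 2 put BRG1 at 57.3% or 44.0% of SMARCC1 genes, and leaving out SMARCC1 replicate 1 or 2 put SMARCC1 at 10.98% or 13.0% of BRG1 genes. With equal lists, with −log10 p of at least 3 and with peaks of either replicate, BRG1 was at 5.41%, 21.7% and 53.6% of SMARCC1 genes, against 32% (interval 24.6 to 40.1) as reported. Of the 13 other settings, 8 only loosen the rule and cannot remove a gene. ACTN4, IQGAP1 and ZFAND1 remained in all 5 that can and RSF1 in 4, whereas the 48 genes remained in a median of 3 and RAB31 in 0. ACTN4 combined low BRG1 folds (2.30 and 2.56, 2.66 and 2.69, 3.20 and 3.62 at its 3 sites) with −log10 p values of 5.61 to 10.4.

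**Figure D4:**
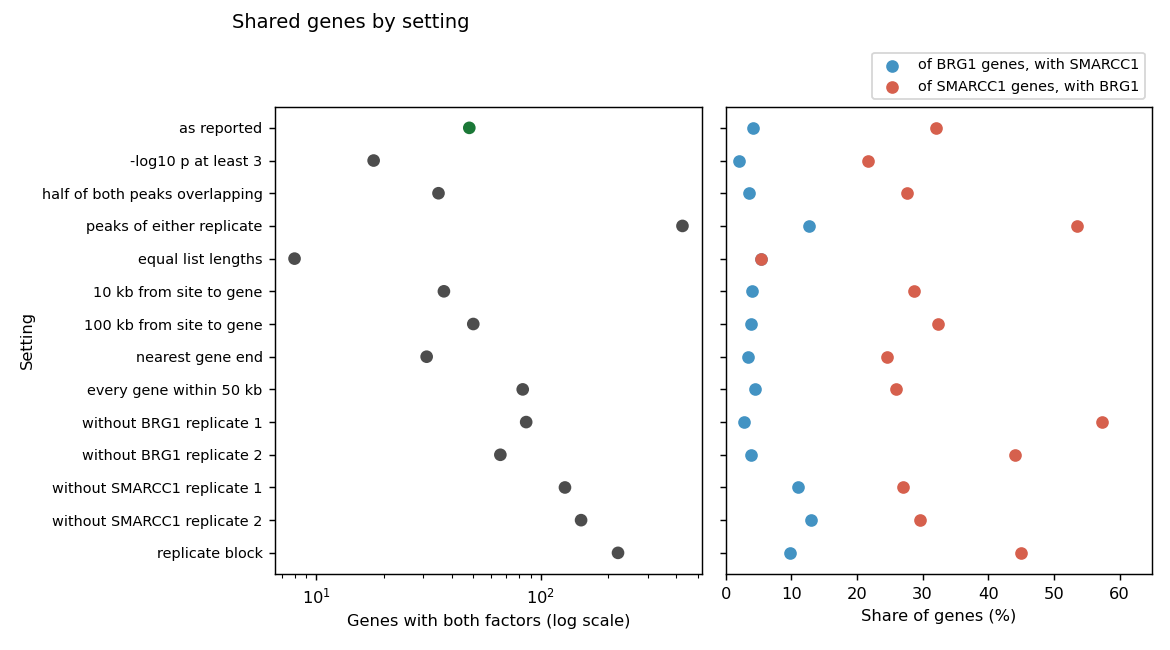
Number of genes with both factors (left, log axis) and the share of BRG1 genes with SMARCC1 and of SMARCC1 genes with BRG1 (right, in %) as reported and under 13 other settings. The count runs from 8 at equal list lengths, where the shares of 5.30% and 5.41% coincide, to 427 with peaks of either replicate.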

How the data were processed

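CUT&RUN peak lists of 12 libraries were used. Targets and replicate numbers were taken from the titles. Tools listed in the submitters' processing notes are MACS2 2.2.7.1, Picard 2.23.9, SAMtools 1.9 and Bowtie2 2.4.1, with the build GRCh38 and neither roles nor settings. The authors deposited for each peak a fold enrichment, used unscaled as strength, and −log10 p and −log10 q values, used for thresholds and ranks. The labels do not say whether IgG was the control in peak calling. Peaks were called per library.

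From these, overlapping or touching peaks of both replicates were merged, keeping stretches with a peak from each. A summit or strength is the mean over both libraries of the highest peak. Overlap meant at least 1 bp. Genes were RefSeq coding spans of GRCh38.p14, and starts those of its promoter table. It lists starts for 15812 of 19974 coding genes and none on chromosome 8. A distance to a start is to the nearest listed start of any coding gene. Intervals are exact (Clopper-Pearson) at 95%, and a count of 0 was given a limit of 3 sites, so both cover counting error only. Site classes were tested on planted peaks and recovered.

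Named genes followed a rule: every overlapping pair, the 8 closest and 5 farthest others, genes with both and at least 3 sites, the 8 best ranked and 3 with most sites of each factor alone, and up to 4 genes of each list. Further list members, the genes of the motif examples, UBA1 and the chromosome 19 window were named after their values were seen. Members and lists were chosen with earlier results of these data known. Alternatives were other thresholds, overlaps, list lengths, windows, gene assignments and left-out libraries; those on overlapping strength and on marks were added after seeing the data. Same-numbered BRG1 and SMARCC1 libraries shared 203 and 238 genes and cross-numbered ones 177 and 257, so the numbers were not taken to pair the libraries. Analyses used Python 3.11.15, NumPy 2.4.6, pandas 2.3.3, SciPy 1.17.1 and matplotlib 3.10.9.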

Additional observations from a re-analysis of the deposited data

Results flagged for a closer look

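With sites found in both replicates, the median fold of shared genes was higher for BRG1 and lower for SMARCC1 in both libraries of each factor, but the sign changed with the processing. The median BRG1 fold enrichment was 0.162 higher in shared genes than in genes with BRG1 only (0.209 and 0.115 in replicates 1 and 2). The median SMARCC1 fold enrichment differed by −0.0955 between shared genes and genes with SMARCC1 only (−0.145 and −0.0461). The difference between the factors was not tested, and the folds of different antibodies are not on 1 scale. On the log2 scale of the mean fold the BRG1 difference of 0.083 was 0.034 and 0.0048 without BRG1 replicates 1 and 2, and 0.034 and 0.010 without SMARCC1 replicates 1 and 2, and it turned to −0.45 with lists of equal length. The SMARCC1 difference of −0.044 was 0.0054 without BRG1 replicate 1, 0.013 without SMARCC1 replicate 1, 0 without SMARCC1 replicate 2, 0.014 with peaks of either replicate and 0.012 with same-numbered libraries as a block.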

How the results depend on the processing

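Lists without counts leave depth unknown, so a gene without a site may only lie below the threshold. Strength is the log2 ratio of median folds in shared genes over genes with 1 factor (reported: 0.083 BRG1, −0.044 SMARCC1, and 0.15 for overlapping BRG1 sites). The H3K27ac difference (BRG1 sites) and H3K4me3 difference (SMARCC1 sites) are shared minus single-factor genes, 39.9 and −25.3 points. The distance is the median of 1235 bp. With −log10 p of at least 3, this gave 18 shared genes, 65 genes with SMARCC1 only, 21.7% of SMARCC1 genes with BRG1, 2.01% of BRG1 genes with SMARCC1, distance 259 bp, overlap strength 0.084, H3K27ac difference 45.2 points. With peaks of either replicate, this gave 427 shared genes, 2920 genes with BRG1 only, 370 genes with SMARCC1 only, 53.6% of SMARCC1 genes with BRG1, 12.8% of BRG1 genes with SMARCC1, distance 168 bp, BRG1 strength 0.014, SMARCC1 strength 0.014, overlap strength 0.11, H3K27ac difference 19.6 points, H3K4me3 difference −18.7 points, with the sign of SMARCC1 strength turned. With lists of equal length, this gave 8 shared genes, 143 genes with BRG1 only, 5.41% of SMARCC1 genes with BRG1, 5.30% of BRG1 genes with SMARCC1, distance 19348.8 bp, BRG1 strength −0.45, overlap strength 0.073, H3K27ac difference 46.7 points, with the sign of BRG1 strength turned. With the nearest gene end, this gave 31 shared genes, 24.6% of SMARCC1 genes with BRG1, 3.34% of BRG1 genes with SMARCC1, distance 194 bp, overlap strength 0.19, H3K27ac difference 45.5 points, H3K4me3 difference −20.6 points. With every gene within 50 kb, this gave 83 shared genes, 1779 genes with BRG1 only, 237 genes with SMARCC1 only, 25.9% of SMARCC1 genes with BRG1, overlap strength 0.16, H3K27ac difference 35.5 points. With same-numbered libraries paired as a block, this gave 220.5 shared genes, 2146.5 genes with BRG1 only, 271.5 genes with SMARCC1 only, 45.0% of SMARCC1 genes with BRG1, 9.85% of BRG1 genes with SMARCC1, distance 356 bp, BRG1 strength 0.026, SMARCC1 strength 0.012, overlap strength 0.12, H3K27ac difference 22.2 points, H3K4me3 difference −18.5 points, with the sign of SMARCC1 strength turned. With replicate peaks overlapping by 50% of both, this gave 27.6% of SMARCC1 genes with BRG1, distance 3672 bp, overlap strength 0.24, H3K27ac difference 46.8 points, H3K4me3 difference −34.8 points. With 10 kb from site to gene, this gave 28.7% of SMARCC1 genes with BRG1, overlap strength 0.14, H3K27ac difference 38.0 points. With 100 kb, this gave distance 707 bp, overlap strength 0.11, H3K27ac difference 37.9 points. For overlapping against all other sites, this gave SMARCC1 strength −0.0043. With 1 library left out in turn the ranges were 66 to 151 (shared genes), 1015 to 2930 (genes with BRG1 only), 64 to 358 (genes with SMARCC1 only), 26.9 to 57.3% (of SMARCC1 genes with BRG1), 2.85 to 13.0% (of BRG1 genes with SMARCC1), 180 to 3656.5 bp (distance), 0.0048 to 0.034 (BRG1 strength), −0.038 to 0.013 (SMARCC1 strength), 0.092 to 0.16 (overlap strength), 23.1 to 37.2 points (H3K27ac difference), −21.2 to −18.1 points (H3K4me3 difference). The single-factor counts moved by over 1.5 times without BRG1 replicate 1 (2930 with BRG1 only, 64 with SMARCC1 only) and without SMARCC1 replicate 1 and 2 (347 and 358 with SMARCC1 only). SMARCC1 strength had the other sign without BRG1 replicate 1 (0.0054) and without SMARCC1 replicate 1 (0.013). Values not given kept their direction and moved by less than the spread between libraries or, for counts, by under 1.5 times; the cause of the others was not tested, except that equal lists and stricter thresholds hold fewer peaks.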
